A study of Mus musculus with 12 samples.

Results

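The 34 genes described here are the 20 cytosolic aminoacyl-tRNA synthetases, 7 transcription factors and stress effectors of the ATF4 pathway, and 7 genes of amino acid synthesis, amino acid transport and mitochondrial one-carbon metabolism. They were chosen by symbol, and each was found among the 55450 rows of the deposited gene table. They took 35 rows, because Ddit3 has an additional short entry with a total estimated count of 1.2 over all libraries, which was not used. Of the 34 genes, 33 had enough reads to be tested among 14346 genes, and Trib3 did not.

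RNA depleted of ribosomal RNA was sequenced from LK cells, the Lin- ckit+ progenitors of mouse bone marrow, sorted for donor origin from the marrow of mice given a competitive transplant. There were 12 libraries in 4 groups of 3 by genotype: WT, Tet2KO, Id1KO, and dKO, the last being Tet2KO and Id1KO together. Every group was thus a transplanted one, and the labels used here give no allele, promoter, Cre driver, strain or age. All libraries of a genotype carried the same sample number in their titles, so they may be repeats of 1 cell sample, and the p-values below measure the spread between libraries, which may be technical. The product of Tet2 oxidises methylated cytosine in DNA and is often lost in blood clones of older people, and the Id1 protein blocks basic helix-loop-helix factors from binding DNA. The comparisons ask how the genes differ between libraries with and without each label, and whether the change with the Id1 label depends on the Tet2 label.

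An aminoacyl-tRNA synthetase joins 1 amino acid to its tRNAs, and its product is what the ribosome uses. When an amino acid runs short, the kinase GCN2 (Eif2ak4) senses uncharged tRNA and phosphorylates the initiation factor eIF2, which lowers general protein synthesis and raises translation of the Atf4 message. ATF4 then activates synthetase genes, amino acid transporters and enzymes of asparagine and serine synthesis, through a promoter sequence called the C/EBP-ATF response element. PERK, PKR and HRI feed other stresses into the same step, HRI being the sensor of heme shortage in erythroid cells. Because ATF4 protein is controlled by translation, the Atf4 transcript measured here does not give its protein level.

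The C/EBP-ATF letters TGATGNAA were sought on both strands of the promoter windows of RefSeq on GRCm38.p6, each covering 250 bases before and 50 bases after a gene's start. Windows were found for 27 of the 34 genes, and 9 of these genes held the letters (33.3%), against 4.51% of all 27025 genes with a window. The genes were Aars, Gars, Iars, Tars and Yars among the synthetases, and Trib3, Chac1, Asns and Slc7a11. The promoters of Aars, Gars, Tars and Yars are shown beside that of Asns because these genes were lower in Tet2KO and higher in dKO, as described below, Iars is shown as a synthetase with the letters that was not lower in Tet2KO, and Chac1 is shown as a gene with the letters whose difference did not pass the test. Each is written 5′ to 3′ along the strand of the gene, with the matching letters in capitals (TGATGNAA, or its reverse complement TTNCATCA).
Asns: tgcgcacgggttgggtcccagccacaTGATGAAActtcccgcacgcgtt
Gars: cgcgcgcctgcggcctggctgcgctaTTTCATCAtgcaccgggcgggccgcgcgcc
Aars: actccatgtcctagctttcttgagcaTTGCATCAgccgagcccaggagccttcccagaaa
Tars: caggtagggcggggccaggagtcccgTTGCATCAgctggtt
Yars: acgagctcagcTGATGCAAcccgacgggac
Iars: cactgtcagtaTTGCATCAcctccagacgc
Chac1: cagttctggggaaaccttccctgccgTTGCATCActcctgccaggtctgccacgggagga
The stretch of Asns is chr6:7693210-7693258 on the minus strand, and its match lies from -23 to -16 relative to the start. This promoter is known for a nutrient-sensing element through which ATF4 acts. The stretch of Gars is chr6:55037945-55038000 on the plus strand, with the match from -30 to -23. That of Aars is chr8:111033704-111033763 on the plus strand, with the match from -112 to -105, and a further match in the same window lies from 10 to 17. The stretch of Tars is chr15:11399659-11399699 on the minus strand, with the match from -15 to -8. In Yars (chr4:129189895-129189924, plus strand) and Iars (chr13:49682126-49682155, plus strand) the matches lie just after the start, from 4 to 11 and from 8 to 15. The stretch of Chac1 is chr2:119351023-119351082 on the plus strand, with the match from -193 to -186. A match describes these letters and is not evidence of binding.

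Each library held between 15706407 and 19959183 estimated counts, and levels are given in CPM, the count scaled to the library total with TMM factors. Neither targeted gene bore out its label: Tet2 averaged 99.3 CPM in the WT group, 92 in Id1KO, 130 in Tet2KO and 118 in dKO, and Id1 averaged 1.47, 3.96, 3.86 and 3.93 in the same order. The labels used here do not say which exons the alleles delete, so these values do not check the labels, and genotype names below are those of the labels. Xist, the X-inactivation RNA of female cells, averaged 262, 64.9, 10.8 and 16.7 CPM in that order and the Y-linked Ddx3y 48.9, 93.4, 87.7 and 82.1, and the part of donor sex in the results was not tested. Kit, which defined the sort, stood between 314 and 377 CPM in all libraries, and the T cell gene Cd3e had at most 1 count in any. Beyond sampling noise, library pairs of the same label differed with a chi-square per degree of freedom of 1.52 to 5.35, and pairs of different labels with 9.18 to 24.

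Levels of the genes per kilobase of exon spanned a wide range. Over all libraries, Phgdh, the enzyme of the committed step of serine synthesis, was highest at 132 CPM per kilobase, followed by Atf4 at 90.3 and the valine enzyme Vars at 72.8. The other synthetases lay lower on this per-kilobase scale, with Nars at 50.2, Kars at 49.5, Gars at 49.4 and Hars at 47.8 near the top and Cars at 6.65 lowest. The scale divides by the length of all merged exons, so the order depends on annotated length. Eprs, with 18.102 kb, stood at 22.2, although its 401 CPM was near the 408 CPM of Vars, with 5.608 kb. Apart from Atf4, the stress effectors were low, with Ddit3 at 6.05 CPM per kilobase, Ddit4 at 3.48, Sesn2 at 2.95, Atf5 at 2.67, Chac1 at 0.335 and Trib3 at 0.170. The cystine transporter Slc7a11 was lowest of all 34 genes at 0.116. The transcripts that mark strong ATF4 activity in stressed cells, Chac1 and Trib3, were thus close to the limit of detection in all 4 groups: Trib3 had 3 to 15 counts per library.

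With the Tet2 label alone, most synthetase transcripts fell by a small amount, and asparagine synthetase fell most. In Tet2KO against WT, 21 of the 33 tested genes were lower and 0 were higher at an adjusted p of 0.05 (edgeR quasi-likelihood test, Benjamini-Hochberg over 14346 genes), where 16.2% of all tested genes were lower and 16.6% were higher. At an unadjusted p under 0.05, 22 were lower and 0 higher, and DESeq2 called 20 lower and 0 higher. The 21 comprised 17 of the 20 synthetases, Atf4, and Asns, Mthfd2 and Slc3a2. The median log2 fold change was -0.16 over the synthetases and -0.13 over all 33 genes, against -0.003 over all genes tested. The summed level of the 20 synthetases was 3224 to 3271 CPM in WT libraries and 2945 to 2955 in Tet2KO, without overlap.

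Asns, which makes asparagine from aspartate and glutamine, stood at 63.2, 72.1 and 66.8 CPM in the WT libraries, 43.9, 42.0 and 41.2 in Tet2KO, 67.8, 67.4 and 62.7 in dKO, and 76.0, 76.5 and 84.0 in Id1KO. All Tet2KO libraries lay below the other 9, and all Id1KO libraries lay above them. Its log2 fold change in Tet2KO against WT was -0.67 ± 0.053 (SE), so that the level fell by 37.2%, with an edgeR adjusted p of 9.22e-09. Hars, the histidine enzyme, measured 125, 129 and 123 CPM in WT, 97.9, 102 and 99.2 in Tet2KO, 122, 119 and 118 in dKO, and 123 in each Id1KO library. The Tet2KO libraries lay below the other 9, and against WT the level fell by 20.9%, a log2 fold change of -0.34 ± 0.03 (edgeR adjusted p 3.72e-08). Cars, the cysteine enzyme, measured 42.6, 47.0 and 44.9 CPM in WT, 38.7, 37.9 and 36.6 in Tet2KO, 47.7, 46.2 and 46.6 in dKO, and 45.5, 46.4 and 45.3 in Id1KO. Here too the Tet2KO libraries lay below all others, with a log2 fold change of -0.25 ± 0.045 against WT (edgeR adjusted p 0.000285).

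The next largest falls among the synthetases were those of Aars and Yars, which charge alanine and tyrosine, with log2 fold changes of -0.23 each. Wars (tryptophan) followed at -0.22, Gars (glycine, in cytosol and mitochondria) at -0.21 and Farsb (the beta subunit for phenylalanine) at -0.20. Nars and Sars, for asparagine and serine, were at -0.17, Farsa, the alpha subunit for phenylalanine, at -0.16, Dars and Tars, for aspartate and threonine, at -0.15, Rars (arginine) at -0.14, and Mars (methionine) at -0.13. The smallest differences past the threshold were those of Lars, Eprs and Kars. Lars, the leucine enzyme, measured 171, 169 and 169 CPM in WT and 159, 154 and 153 in Tet2KO, with 167 to 173 in Id1KO and 169 to 175 in dKO. Eprs, which charges both glutamate and proline, measured 406, 408 and 423 CPM in WT and 382, 374 and 382 in Tet2KO, with 396 to 403 in Id1KO and 406 to 424 in dKO. Kars, the lysine enzyme of cytosol and mitochondria, measured 226, 223 and 227 CPM in WT and 205, 213 and 210 in Tet2KO, with 224 to 228 in Id1KO and 219 to 228 in dKO. Even for these the Tet2KO libraries lay under the other 9, and the log2 fold changes against WT were -0.13, -0.12 and -0.11.

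Iars, Qars and Vars did not pass the test. Iars, the isoleucine enzyme, had a log2 fold change of 0.02 with a 95% interval of -0.03 to 0.08. Qars, the glutamine enzyme, had -0.04 with an interval of -0.10 to 0.03. For Vars the value was -0.08 (edgeR adjusted p 0.0965), with every Tet2KO library below every WT library, and it passed the threshold when no filter on low counts was used or when only WT and Tet2KO libraries entered the fit. The synthetases were also split by the multi-synthetase complex, a grouping made with the values known, where 16.2% of all tested genes were lower. Of the 8 in the complex (Dars, Eprs, Iars, Kars, Lars, Mars, Qars and Rars) 6 were lower, and of the 12 outside it 11 were lower. Their median log2 fold changes were -0.12 and -0.20, and a difference between these groups was not tested.

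**Figure D1:**
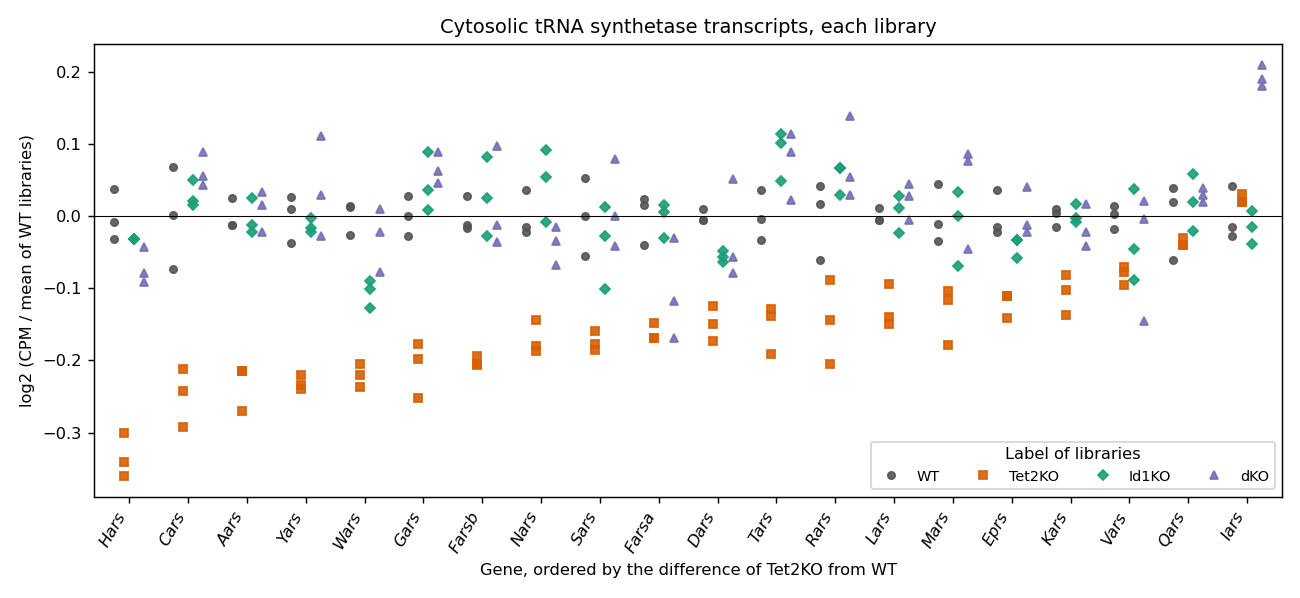
Level of each of the 20 cytosolic synthetase transcripts in each of the 12 libraries, as log2 of CPM over the mean of the 3 WT libraries, with genes ordered by the difference of Tet2KO from WT and 1 symbol per library. The Tet2KO squares lie below all other symbols for 16 of the 20 genes, while the dKO triangles of Iars lie above all others.

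Atf4, the transcription factor of the pathway, measured 217, 223 and 223 CPM in WT, 207, 195 and 202 in Tet2KO, 209, 207 and 207 in dKO, and 221, 229 and 215 in Id1KO. The Tet2KO and dKO libraries lay below the WT and Id1KO libraries, and Tet2KO and dKO overlapped. Its log2 fold change in Tet2KO against WT was -0.13 ± 0.029, with an edgeR adjusted p of 0.00151. Of the other effectors none passed the test in this comparison: the fold changes on the log2 scale were -0.09 for Ddit3, -0.09 for Sesn2, 0.23 for Ddit4 and 0.59 for Chac1, whose 95% interval ran from -0.34 to 1.52, and the interval of Atf5 ran from -0.29 to 0.29. Of the metabolic genes, Mthfd2, the mitochondrial folate dehydrogenase, had a log2 fold change of -0.18 (edgeR adjusted p 0.0175), and Slc3a2, the heavy chain of amino acid transporters, had -0.13 (0.00606). Psat1 and Phgdh, which act one after the other in serine synthesis, had 0.01 and 0.03 with intervals of -0.06 to 0.07 and -0.04 to 0.10, Shmt2, the mitochondrial serine hydroxymethyltransferase, had -0.05, and Slc7a11 had 0.22 with an interval of -0.29 to 0.73.

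Of the 21 differences of Tet2KO from WT, 19 passed the test whichever library was left out. Mars lost the call without WT library 3 or Tet2KO library 2 (largest adjusted p 0.0748), and Mthfd2 without WT library 2 or 3 or Tet2KO library 3 (0.0923) and in DESeq2. A fit to libraries summed per genotype takes the interaction of both labels as its error and has 1 residual degree of freedom. It gives the effect of the Tet2 label over both states of the Id1 label, which is not Tet2KO against WT alone. This effect was -0.46 for Asns, with a median of -0.06 over the 33 genes. Because the interaction is its error, the fit cannot decide on the 21 differences.

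**Figure D2:**
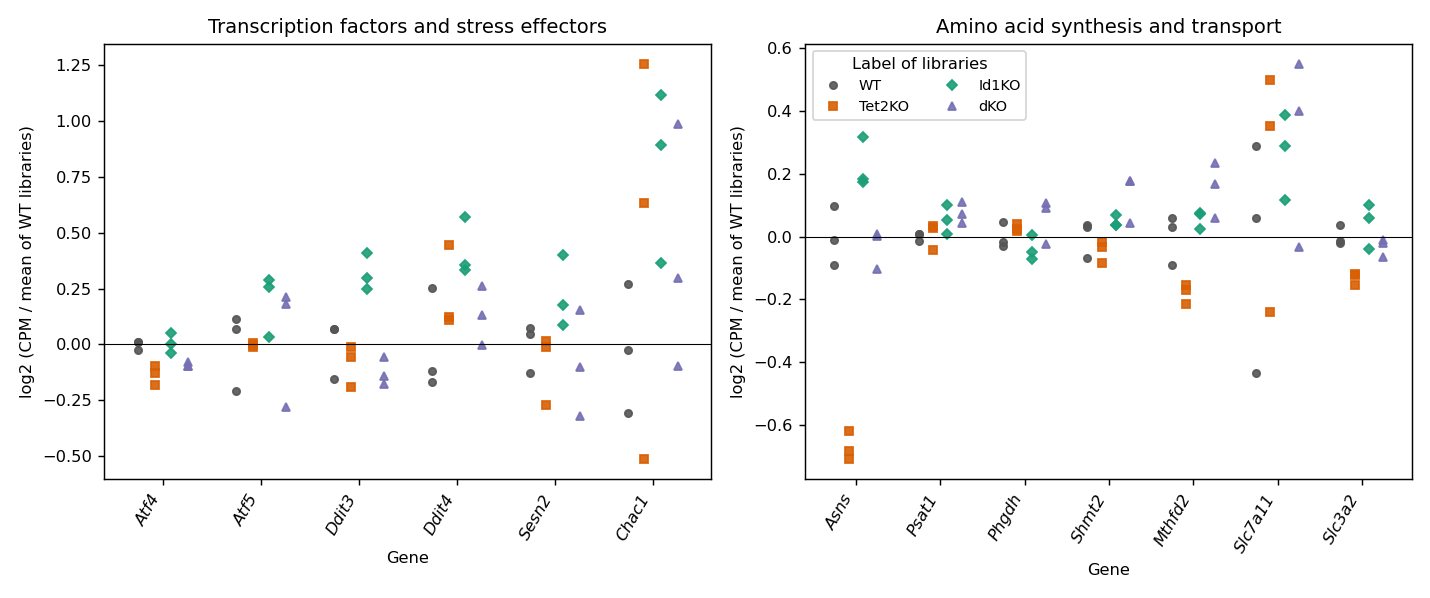
Level of each transcription factor, stress effector and metabolic gene in each library, as log2 of CPM over the mean of the 3 WT libraries, with 1 symbol per library and Trib3 left out. Asns in the Tet2KO libraries, at 41.2 to 43.9 CPM, lies apart from the other 9 libraries, while Chac1 and Slc7a11, at most 0.919 and 2.04 CPM in any library, scatter widely.

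With both labels, the synthetases stood near their WT levels. In dKO against Tet2KO, 21 of the 33 genes were higher and 0 lower (edgeR), where 13.1% of all tested genes were higher and 13.4% were lower. At an unadjusted p under 0.05, 22 were higher and 0 lower, and DESeq2 called 20 higher and 0 lower. The 21 were 17 of the 20 synthetases, Asns, Mthfd2, Shmt2 and Slc3a2. The median log2 fold change was 0.18 over the synthetases and 0.13 over the 33 genes, and the summed synthetase level was 3248 to 3279 CPM in dKO. This comparison uses the same Tet2KO libraries as the one with WT, so the values of both are given side by side and are not independent of each other.

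Asns, whose values are given above, rose by 55.8% from Tet2KO to dKO, with a log2 fold change of 0.64 ± 0.054 (edgeR adjusted p 4.08e-08) against -0.67 from WT to Tet2KO. Mthfd2 measured 27.7, 30.1 and 30.7 CPM in WT, 26.5, 26.2 and 25.4 in Tet2KO, 30.7, 34.7 and 33.1 in dKO, and 31.0, 30 and 31.1 in Id1KO. The Tet2KO libraries were below all others, and its log2 fold change in dKO against Tet2KO was 0.34 ± 0.057 (edgeR adjusted p 0.000165). Cars rose by 0.31 ± 0.046 on the log2 scale (edgeR adjusted p 4.43e-05), Gars by 0.28, Hars and Yars by 0.27, Aars by 0.24, Tars by 0.23, and Farsb and Rars by 0.22. Sars and Wars rose by 0.19, Iars and Mars by 0.17, Lars by 0.15 and Nars by 0.13. Dars measured 200, 202 and 200 CPM in WT, 184, 178 and 181 in Tet2KO, 193, 208 and 190 in dKO, and 192, 194 and 193 in Id1KO, and its log2 fold change from Tet2KO to dKO was 0.12, as was that of Eprs. Here the gap between the highest Tet2KO and the lowest dKO library was small next to the spread among dKO libraries.

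At the lower end, Slc3a2 measured 93.8, 97.7 and 94.2 CPM in WT, 87.4, 87.6 and 85.6 in Tet2KO, 93.9, 91.1 and 94.6 in dKO, and 99.1, 102 and 92.7 in Id1KO. Its rise of 0.10 had an edgeR adjusted p of 0.0418 and was lost without WT library 3, any of the 3 Tet2KO libraries, Id1KO library 1, or dKO library 1 or 3, and in DESeq2, with upper-quartile scaling and without a filter. Kars rose by 0.09 (edgeR adjusted p 0.0119), a call lost without Tet2KO library 1 or dKO library 1. The remaining 19 calls held whichever library was left out. In the fit to summed libraries, the effect of the Id1 label over both states of the Tet2 label had a median of 0.12. It was 0.43 for Asns, and it is not the change from Tet2KO to dKO alone.

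Not all genes that had been lower in Tet2KO were higher in dKO. Farsa measured 160, 159 and 153 CPM in WT, 140, 140 and 142 in Tet2KO, 154, 140 and 145 in dKO, and 158, 159 and 154 in Id1KO. Its dKO libraries ran from the Tet2KO level to the WT level, and the log2 fold change in dKO against Tet2KO was 0.06 with a 95% interval of -0.01 to 0.13. Atf4 itself had 0.05 with an interval of -0.02 to 0.11 (edgeR adjusted p 0.292). Of the 6 tested transcription factors and stress effectors 0 passed in edgeR, 0 at an unadjusted p under 0.05 and 0 in DESeq2, with log2 fold changes of -0.14 to 0.05. Qars and Vars had 0.06 and 0.04, and Psat1, Phgdh and Slc7a11 had 0.07, 0.03 and 0.10. By contrast Shmt2, which was at 177 ± 4.2 CPM (SD, n = 3) in Tet2KO, stood at 200 ± 10 in dKO, a rise of 0.18 on the log2 scale.

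Across both steps, 19 of the 33 genes fell from WT to Tet2KO and rose from Tet2KO to dKO, namely 16 synthetases, Asns, Mthfd2 and Slc3a2, and 8.59% of all tested genes did so. The same 19 genes (16 synthetases and 3 metabolic genes) had all 3 Tet2KO libraries below all 9 others, against 10.7% of all tested genes. Both descriptions rest on the same Tet2KO libraries. None of the 6 tested transcription factors and stress effectors was among the 19, a count that lay near the shares of all genes.

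**Figure D3:**
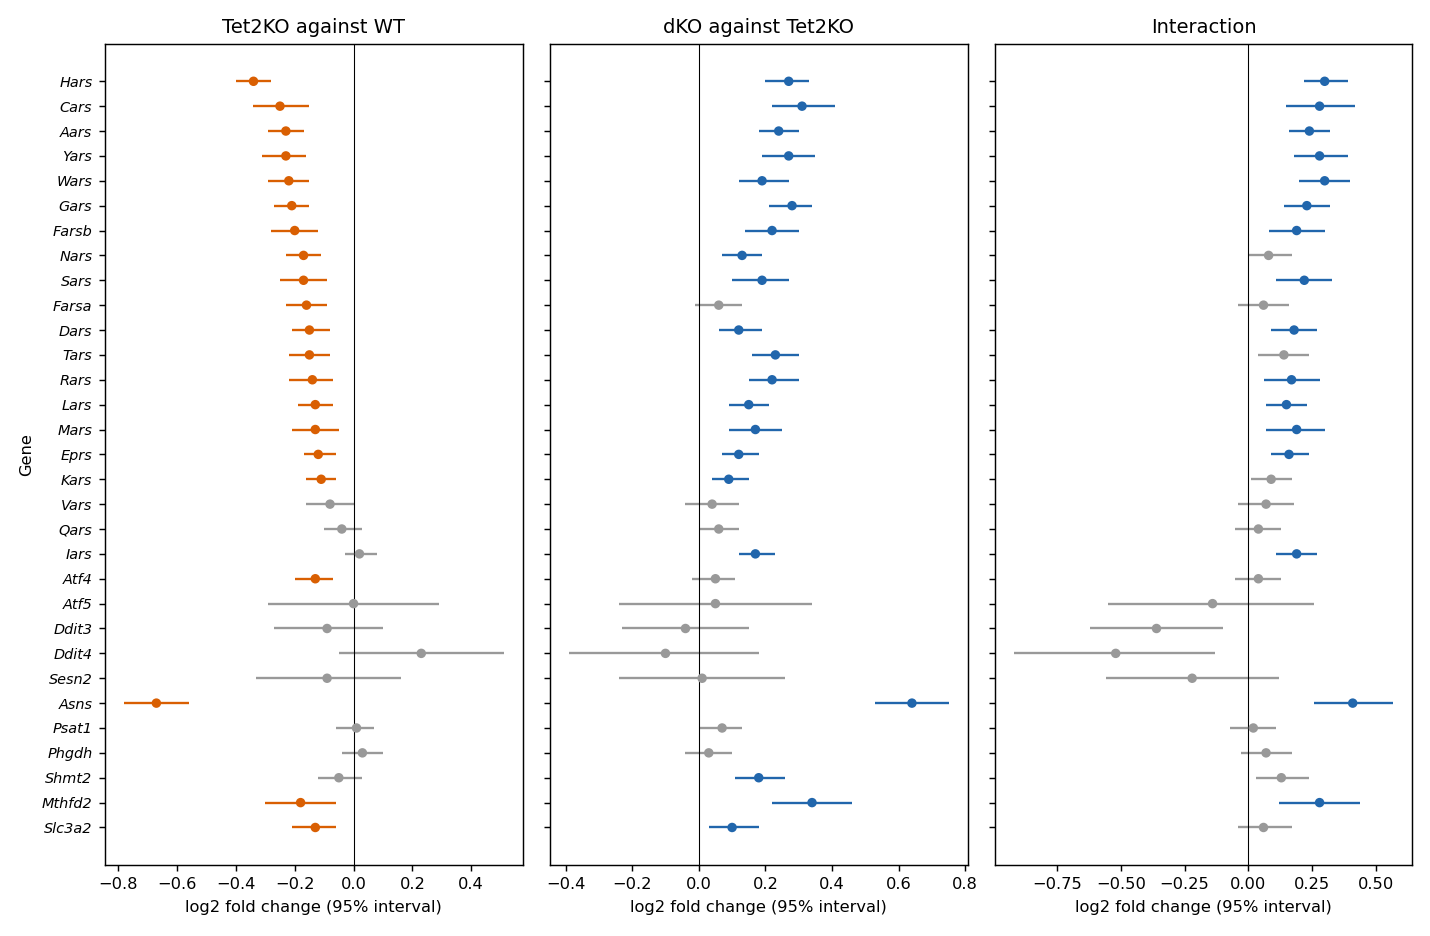
Log2 fold change with its 95% interval for 31 of the 33 tested genes, in panels for Tet2KO against WT (left), dKO against Tet2KO (middle) and the interaction (right), with a separate horizontal scale per panel, colour for genes past the threshold and grey for the others (Chac1 and Slc7a11, whose intervals are wider, are left out). Asns has the lowest value on the left (-0.67) and the highest in the middle (0.64), and the Atf4 interval lies below 0 only on the left.

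The interaction tests the change with the Id1 label in the presence of the Tet2 label against the same change in its absence. It passed for 16 of the 33 genes, all with a higher value under the Tet2 label (edgeR), where 7.46% of all tested genes passed in that direction and 7.03% in the other. At an unadjusted p under 0.05, 19 were higher and 2 lower, and DESeq2 called 13 higher and 0 lower. The 16 were 14 synthetases, Asns and Mthfd2, and all but Iars had been called lower in Tet2KO against WT. The interaction uses the same Tet2KO libraries as the comparisons above and is not independent of them. Asns had an interaction of 0.41 ± 0.073 on the log2 scale (edgeR adjusted p 0.000662), Hars 0.30 ± 0.042 (5.22e-05) and Wars 0.30 ± 0.049 (0.000356). Yars, Cars and Mthfd2 were at 0.28, Aars at 0.24, Gars at 0.23, Sars at 0.22, Farsb, Iars and Mars at 0.19, Dars at 0.18, Rars at 0.17, Eprs at 0.16 and Lars at 0.15.

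The values of Ddit3 and Ddit4 pointed the other way, at -0.36 and -0.52, and missed the threshold with edgeR adjusted p of 0.0631 and 0.0706. Atf4 had an interaction of 0.04 with a 95% interval of -0.05 to 0.13. The call was lost for Lars without Tet2KO library 3, for Farsb without WT library 2, Tet2KO library 2, Id1KO library 3 or dKO library 2, and for Mthfd2 without WT library 2 or 3, Tet2KO library 3 or dKO library 2. It was lost for Mars without WT library 3, Tet2KO library 2, Id1KO library 2, or dKO library 1 or 3, and for Rars without any 1 of 8 libraries (WT 2 and 3, Tet2KO 1 and 2, the 3 of Id1KO, and dKO 2). DESeq2 did not call Farsb, Rars or Mthfd2.

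With the Id1 label alone, the share of the genes that differed lay near that of all tested genes. In Id1KO against WT, 3 genes were higher and 1 lower (edgeR), where 7.26% of all tested genes were higher and 7.77% lower. Asns rose by 0.23 ± 0.048 on the log2 scale (edgeR adjusted p 0.00308). Ddit3, which encodes CHOP, the factor linked to cell death under prolonged stress, measured 10.6, 9.07 and 10.6 CPM in WT, 10, 9.71 and 8.83 in Tet2KO, 9.70, 8.92 and 9.16 in dKO, and 12.4, 13.4 and 12 in Id1KO. All Id1KO libraries lay above the other 9, and its log2 fold change against WT was 0.32 ± 0.086 (edgeR adjusted p 0.0147). Ddit4, an inhibitor of mTORC1 signalling, measured 4.87, 6.29 and 4.70 CPM in WT, 5.76, 7.21 and 5.71 in Tet2KO, 6.34, 5.27 and 5.79 in dKO, and 7.85, 6.66 and 6.77 in Id1KO. Its Id1KO libraries lay above those of WT and overlapped those of Tet2KO, with a log2 fold change of 0.42 ± 0.13 against WT (edgeR adjusted p 0.0345).

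Wars measured 71.8, 71.9 and 69.9 CPM in WT, 61.8, 61.1 and 60.4 in Tet2KO, 70.1, 67.5 and 71.7 in dKO, and 66.9, 65.2 and 66.4 in Id1KO. It was the 1 synthetase lower in Id1KO than in WT, with a log2 fold change of -0.11 (edgeR adjusted p 0.0392), and the Id1KO libraries lay between those of Tet2KO and WT. Of these 4 calls only that of Asns held whichever library was left out and in DESeq2. Ddit3 was lost without WT library 2 or Id1KO library 2 (largest adjusted p 0.083), Ddit4 without WT library 1 or 3 or Id1KO library 1 (0.144), and Wars without any 1 of 9 libraries (the 3 of WT, Tet2KO 2 and 3, the 3 of Id1KO, and dKO 1; 0.12). Wars was also lost without a filter and with only WT and Id1KO libraries. The other effectors had positive values that did not pass: 0.20 for Atf5, 0.23 for Sesn2, 0.82 for Chac1 (interval -0.07 to 1.71), and Atf4 had an interval of -0.06 to 0.06.

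Against WT, the dKO libraries differed for 4 genes, 2 higher and 2 lower (edgeR), where 10.2% of all tested genes were higher and 8.97% lower. Iars measured 124, 123 and 129 CPM in WT, 128, 127 and 127 in Tet2KO, 143, 145 and 142 in dKO, and 126, 122 and 124 in Id1KO. It was the 1 synthetase whose dKO libraries lay above all others with a call against each of the other 3 labels: the log2 fold change was 0.20 ± 0.028 against WT, 0.17 ± 0.028 against Tet2KO and 0.21 ± 0.028 against Id1KO, with edgeR adjusted p of 3.17e-05, 0.000119 and 1.44e-05. Shmt2 measured 174, 187 and 186 CPM in WT, 180, 178 and 172 in Tet2KO, 206, 188 and 206 in dKO, and 187, 191 and 187 in Id1KO. Its dKO libraries lay above those of WT, by 0.13 on the log2 scale (edgeR adjusted p 0.0119), and overlapped those of Id1KO.

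The 2 lower genes were Farsa at -0.10 (edgeR adjusted p 0.0298) and Atf4 at -0.09 (0.0392). In dKO against Id1KO, 1 gene was higher and 5 were lower, where 10.6% of all tested genes were higher and 8.7% lower. The higher gene was Iars, and the lower ones were Ddit3 at -0.45 ± 0.089 (edgeR adjusted p 0.00118), Asns at -0.26 ± 0.049 (0.00085), Farsa at -0.10 (0.0374), Atf4 at -0.09 (0.0331) and Nars at -0.09 (0.0476). Nars measured 221, 230 and 222 CPM in WT, 197, 203 and 198 in Tet2KO, 214, 222 and 219 in dKO, and 223, 233 and 239 in Id1KO. The dKO libraries lay just below those of Id1KO and overlapped those of WT. In both comparisons with dKO the calls of Iars held whichever library was left out, as did those of Ddit3 and Asns against Id1KO.

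The calls of Farsa, Atf4, Nars and Shmt2 in these comparisons were lost when single libraries were left out. Against WT, Farsa was lost without WT library 1 or 2 or dKO library 2 or 3, Shmt2 without WT library 1 or dKO library 1 or 3, and Atf4 without WT library 2 or 3, Tet2KO library 3, Id1KO library 1 or any dKO library. Against Id1KO, Farsa was lost without Id1KO library 1 or 2 or dKO library 2 or 3, Atf4 without Id1KO library 1 or 2 or any dKO library, and Nars without WT library 3, any Tet2KO library, Id1KO library 2 or 3, or dKO library 1 or 3. The largest adjusted p among these fits were 0.149 for Farsa, 0.144 for Atf4, 0.201 for Nars and 0.0602 for Shmt2. DESeq2 and the fit with only the 2 groups compared called none of Farsa, Atf4 and Nars.

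The promoters with and without the C/EBP-ATF letters were set beside the changes as a description. Of all tested genes, 16.2% were lower in Tet2KO against WT and 13.1% were higher in dKO against Tet2KO. In Tet2KO against WT, 5 of the 8 tested genes with the letters (Aars, Gars, Tars, Yars and Asns) were lower, with a median log2 fold change of -0.18 over the 8, and 10 of the 18 without them were lower, with a median of -0.12. In dKO against Tet2KO, 6 of the 8 were higher, the same 5 and Iars, with a median of 0.24, and 9 of the 18 were higher, with a median of 0.08. Within synthetases alone the medians in that comparison were 0.24 over the 5 with the letters and 0.12 over the 8 without them. Cars, Hars, Rars, Wars, Lars, Nars and Vars had no window, so whether they hold the letters is not known. Their log2 fold changes from Tet2KO to dKO were 0.31, 0.27, 0.22, 0.19, 0.15, 0.13 and 0.04, and they are in neither median. Chac1 and Slc7a11, which hold the letters, did not pass in either comparison.

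The other pathway lists were read against the share of all tested genes called, which was 16.6% higher and 16.2% lower in Tet2KO against WT, and 13.1% higher and 13.4% lower in dKO against Tet2KO. Of 13 tested sensors and eIF2 cycle genes, 7 were lower in Tet2KO against WT and 0 higher (edgeR; 1 higher at an unadjusted p under 0.05 and 0 in DESeq2), and between Tet2KO and dKO 8 rose and 1 fell. Ppp1r15a (GADD34, which recruits the eIF2 phosphatase) fell most, from 70.6 ± 1.6 CPM (SD, n = 3) in WT to 53.4 ± 1.8 in Tet2KO, by 0.40 on the log2 scale, and stood at 58.7 ± 3.1 in dKO. Eif2b3, a subunit of the exchange factor that recharges eIF2, rose most from Tet2KO to dKO, from 28.2 ± 2 to 35.2 ± 0.74 CPM, by 0.32. Mitochondrial synthetases, encoded by other genes, were lower for 6 of 17 and higher for 0 in Tet2KO against WT, and from Tet2KO to dKO 8 of 17 rose and 0 fell (edgeR). The counts of 0 were also 0 at an unadjusted p under 0.05 and in DESeq2.

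Among the mitochondrial synthetases Lars2, for leucine, had the largest called change from Tet2KO to dKO (0.63), with an SD of 6.2 CPM around a mean of 24.0 in Tet2KO and 9.9 around 20.7 in Id1KO. Of the 3 scaffold proteins of the multi-synthetase complex, 2 were lower and then higher, with Eef1e1 at -0.27 and 0.30. Of 25 further genes associated with ATF4, 4 were higher and 8 lower in Tet2KO against WT, and between Tet2KO and dKO 8 rose and 2 fell, so that the count of higher genes in the first comparison lay near the share of all genes. Bcat1, which starts the breakdown of branched-chain amino acids, had the largest called change with the Tet2 label (-0.95 ± 0.28), from 2.10 to 1.09 CPM, and Slc1a4, a carrier of neutral amino acids, the largest from Tet2KO to dKO (0.48 ± 0.15). Of 16 genes of the other arms of the unfolded protein response, 2 were higher and 5 lower in Tet2KO against WT, and between Tet2KO and dKO 2 rose and 2 fell. Apart from the 5, these counts lay near the shares of all genes. Ern1, the sensor IRE1, went against the synthetases, with 173 ± 7.4 CPM in WT, 216 ± 4.2 in Tet2KO, 170 ± 4.1 in dKO and 153 ± 4.5 in Id1KO.

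**Figure D4:**
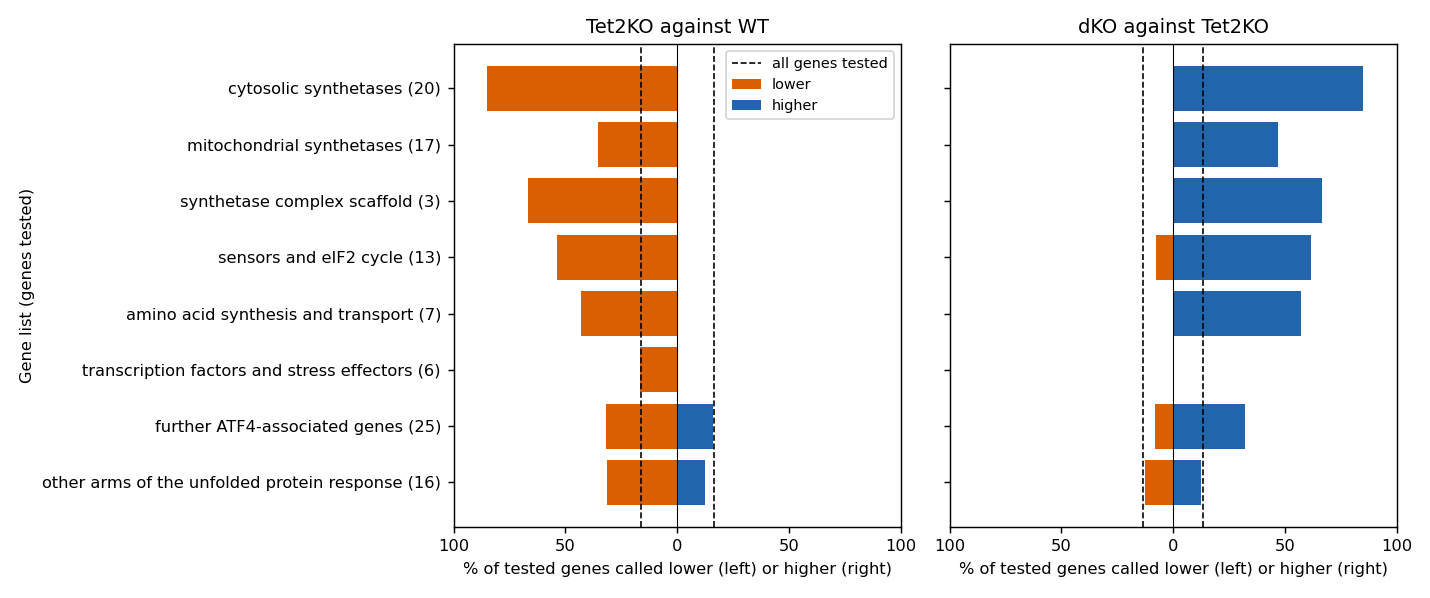
Percent of the tested genes of each list called lower (bars to the left) or higher (bars to the right), for Tet2KO against WT (left panel) and dKO against Tet2KO (right panel), with dashed lines at the percent of all 14346 tested genes called in each direction. The bar of the 20 cytosolic synthetases reaches 85.0% to the left and then 85.0% to the right, while the 6 transcription factors and stress effectors reach 16.7% and 0%.

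Markers of other cells were measured in the same comparisons, where 16.2% of all tested genes were lower in Tet2KO against WT and 13.1% higher in dKO against Tet2KO. Of 15 erythroid genes, 14 fell from WT to Tet2KO, with a median log2 fold change of -0.84, and 14 rose from Tet2KO to dKO, with a median of 0.99. Their summed level was 1616 to 1663 CPM in WT, 970 to 981 in Tet2KO, 1625 to 1644 in dKO and 1803 to 1837 in Id1KO, and no defining marker of the list was at 0 (Alas2 had at most 13 counts). Of 14 S phase genes, 8 were lower in Tet2KO against WT, and the summed level was 4105 to 4217 CPM in WT, 3920 to 3956 in Tet2KO, 4117 to 4190 in dKO and 4035 to 4092 in Id1KO. Neutrophil granule genes had their highest sum in Tet2KO, at 15564 to 15805 CPM against 14087 to 14142 in WT, 11840 to 12815 in Id1KO and 11654 to 12847 in dKO. The sum of stem and multipotent markers was likewise highest in Tet2KO, at 925 to 943 CPM against 843 to 847 in WT, 750 to 766 in Id1KO and 773 to 789 in dKO. Most of that sum came from Kit, which defined the sort, and Cd34, at 335 and 321 CPM on average. Of these 9 markers, 5 were higher and 1 lower in Tet2KO against WT, where 16.6% of all tested genes were higher and 16.2% lower. Among the neutrophil granule genes, Mpo averaged 9500 CPM over all libraries and made up most of the sum. In dKO against WT, 7 of these 11 genes had positive values and 4 negative ones (median log2 fold change 0.13), while their sum was lower.

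Megakaryocyte markers summed to 158 to 164 CPM in WT, 163 to 173 in Tet2KO, 163 to 180 in dKO and 224 to 237 in Id1KO, and lymphoid markers to 197 to 205, 222 to 226, 158 to 172 and 178 to 183. Monocyte and dendritic markers summed to 1881 to 1948, 2138 to 2190, 2095 to 2129 and 1711 to 1722 CPM in the same order, and mast cell, basophil and eosinophil markers to 458 to 466, 416 to 420, 370 to 377 and 563 to 567. Nkg7, at 135 CPM on average, made up most of the lymphoid sum. In dKO against Id1KO, 7 of the 10 tested lymphoid genes had positive values and 3 negative ones (median log2 fold change 0.20), while their sum was lower. Of 14 G2 and M phase genes, 1 was higher and 3 were lower in Tet2KO against WT, with a median log2 fold change of 0.01. The shares of all tested genes were 16.6% higher and 16.2% lower. From Tet2KO to dKO 12 of the 14 rose, against 13.1% of all tested genes. Sums of the 14 were 2718 to 2743, 2824 to 2851, 3026 to 3104 and 2880 to 2949 CPM in the same order. The erythroid and S phase sums, like that of the synthetases, were thus lower in Tet2KO than in WT and dKO, and the part of cell composition in the synthetase results was not tested. In bulk RNA, fewer cells of a type and less RNA per cell cannot be told apart.

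Reads of some genes could not be assigned with certainty. Aars shares 1326 bp of exon with Exosc6 on the same strand, Hars shares 195 bp with Hars2 on the opposite strand, Ddit3 shares 68 bp with Mars on the opposite strand, and Phgdh has a near-identical copy in Gm7901. When Aars and Exosc6, Hars and Hars2, and Phgdh and its copies were summed, every count of members called was the same. Slc7a11, at 1.61 CPM, contains a stretch similar to the abundant tubulin gene Tuba1b, so its low values are uncertain. Slc3a2, Eprs and Yars hold stretches of at most 182, 207 and 221 bp that match transcripts of 335, 87 and 37 other genes over at least 100 bp at 95% identity or more, of which 219, 60 and 10 were above 1 CPM. These genes were not summed, so the calls of Slc3a2, Eprs and Yars carry that uncertainty.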

How the data were processed

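The table holds estimated counts per gene made by the authors, and the submitters' processing notes name STAR, RSEM and the build mm10 with no role or version. The strand setting and annotation of the counting are not given in the sources used here. All 55450 identifiers matched GENCODE M21 on GRCm38.

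Libraries were grouped by the genotype in their labels. Estimated counts were rounded, filtered with filterByExpr (minimum count 10) and scaled by TMM, and the quasi-likelihood model of edgeR was fitted to all 12 libraries at once, each genotype having its own mean. Tests were two-sided, with Benjamini-Hochberg adjustment over 14346 genes and a threshold of 0.05. An exact permutation test of 3 against 3 libraries was not used. Standard errors and 95% intervals of log2 fold changes come from the fit. Total counts of 15706407 to 19959183 and a common coefficient of variation between libraries of 0.0305 set the precision. Levels per kilobase use merged exon length.

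The members, lists and promoter letters were chosen with earlier results of these data known. Values in every library are given for Atf4, Ddit3 and, per pairwise comparison, the 3 highest and 3 lowest called members. Of the other pathway lists, the gene with the largest called change is named for Tet2KO set against WT and for dKO set against Tet2KO, except 1 that is not reported here. The lists held 14 sensors and eIF2 cycle genes, 30 further ATF4-associated genes, 17 mitochondrial synthetases, 3 scaffold genes, 16 genes of other unfolded protein response arms, and markers of blood cell types and cell cycle phases.

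Alternatives were a replicate block, fits without each library in turn, fits to the compared groups alone, libraries summed per genotype with additive effects, DESeq2, RLE or upper-quartile scaling, no filter, a filter of 10 counts in all libraries of any genotype, and, chosen after seeing the data, overlapping or near-identical genes summed. Tested on simulated data of 14346 genes with 200 changed, the Tet2KO against WT step recovered 95.5% of 2-fold and 47% of 1.2-fold changes, with 9 and 11 false calls. The interaction step recovered 89% and 28%, with 14 and 3 false calls. Fewer genes were changed there than were called in the data. Changes under 1.2-fold, like those of most synthetases in Tet2KO against WT, were not simulated. Software was edgeR 4.0.16, DESeq2 1.42.0 and limma 3.58.1 under R 4.3.3, with Python 3.11.15 for the other steps.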

Additional observations from a re-analysis of the deposited data

Results flagged for a closer look

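The change with the Id1 label differed with and without the Tet2 label for 16 of the 33 tested genes, all with a higher value under the Tet2 label. Calls are those of the interaction test of edgeR, adjusted over all genes tested. Of all tested genes, 7.46% passed in that direction and 7.03% in the other. The p-values measure the spread between libraries, which may be technical, and the test shares its Tet2KO libraries with the pairwise comparisons. On the log2 scale, as dKO minus Tet2KO less Id1KO minus WT, the difference was 0.41 for Asns, 0.30 for Hars and Wars, 0.28 for Cars, Yars and Mthfd2, 0.24 for Aars, 0.23 for Gars, 0.22 for Sars, 0.19 for Farsb, Iars and Mars, 0.18 for Dars, 0.17 for Rars, 0.16 for Eprs and 0.15 for Lars. For 11 of these genes the call held whichever library was left out.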

How the results depend on the processing

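Of the calls followed over the alternatives, 1318 of 1480 values kept their side of the threshold, 161 lost it and 1 changed sign. The change of sign was counted for Wars in Id1KO against WT, at 0.04 with libraries summed per genotype. That value is the effect of the Id1 label over both states of the Tet2 label, and the fit uses it for dKO against Tet2KO as well. It is not Id1KO against WT alone, so it does not show that this comparison changed sign. That fit called 0 members in each of the 5 pairwise comparisons, and cannot test the interaction, which is its error. It has 1 residual degree of freedom, and its comparisons are built from 1 effect per label, so they are not separate tests. DESeq2 called 1 member in Id1KO against WT, 2 in dKO against WT and 3 in dKO against Id1KO, where edgeR called 4, 4 and 6. With only the libraries compared the last 2 counts were 2 and 3. The cause was not tested.

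Leaving out each library gave 19 to 22 calls in Tet2KO against WT, 2 to 5 in Id1KO against WT, 1 to 4 in dKO against WT, 19 to 21 in dKO against Tet2KO, 3 to 6 in dKO against Id1KO and 13 to 17 for the interaction. With a replicate block the counts were 21, 3, 3, 21, 5 and 16 in the same order, Wars not being called in Id1KO against WT, nor Atf4 in either comparison of dKO with a label other than Tet2KO. The numbers did not pair the libraries: deviations of same-numbered libraries correlated between -0.10 and 0.11 over 18 pairs, and 6 of 12 libraries correlated best with their own number. Trib3, Chac1 and Slc7a11 had the lowest levels per kilobase. Trib3 was not tested, and Chac1 and Slc7a11 passed in none of the 6 comparisons.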
